A study of Caenorhabditis elegans
Pristionchus pacificus with 6 samples.

Results

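The fatty acid elongases elo-1 to elo-9 are 9 genes of Caenorhabditis elegans, and they were taken from the deposited table by their gene identifiers, which run in the number order of the gene names. All 9 were found among 46958 C. elegans rows, in a table of 73268 rows that also holds genes of a second nematode, Pristionchus pacificus. The table does not pair identifiers with symbols, so the names rest on that order. In the reference annotation 16 pairs of these genes share a chromosome, and the table lists 16 of the 16 in the order of the annotation.

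RNA came from dissected anterior intestines of adult hermaphrodites, taken 72 hours after egg lay at 20 °C. The CDK-2gut(-) libraries (3) came from animals carrying cdk-2::ZF::GFP, zif-1(gk117) and asp-1p::vhhGFP4::zif-1, in which the asp-1 promoter drives a GFP-binding nanobody fused to the degradation adaptor ZIF-1. The control libraries (3) came from animals with cdk-2::ZF::GFP and zif-1(gk117) but without that transgene, so both groups carried the tagged cell cycle kinase gene and the zif-1 mutation. The series describes the intestine of the first strain as reduced in ploidy, and lysate of P. pacificus intestines, dissected at 96 hours, was added in equal amount to each lysate as a spike-in. Lysates of dissected intestines were pooled, and whether a strain's 3 libraries began as separate cultures is not stated in the labels. All p-values therefore measure library-to-library spread, part or all of which may be technical.

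CDK-2gut(-) libraries held 11273570 to 15874554 C. elegans counts and 2726310 to 4060591 P. pacificus counts, and control libraries held 9432973 to 10665065 and 1761793 to 3618153. Replicate number 3 stood apart in both strains, with 2.78 C. elegans counts per P. pacificus count in each of its libraries against 4.51 to 5.35 in the others. The tissue label was not checked against marker genes, because 0 of the table's identifiers occur in the reference gene table used here. For the same reason the desaturases, the other enzymes of the elongation cycle and the regulators of fat synthesis were not analysed here.

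Elongases carry out the condensing step that lengthens a fatty acid chain inside the endoplasmic reticulum, with malonyl-CoA as the donor, and different family members prefer different chains. In C. elegans, ELO-1 lengthens polyunsaturated fatty acids, ELO-2 lengthens the saturated palmitic acid, and ELO-5 and ELO-6 make the monomethyl branched-chain fatty acids that the animal needs for growth. The intestine is the main site of fat synthesis and storage in this animal.

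The CDK-2gut(-) intestines held more elo-2 and elo-6 RNA per unit of spike-in than control intestines, 1.95-fold and 1.90-fold as fitted, while the abundant elo-5 did not pass the test. Of 9 members, 5 had enough counts to be tested, and 2 of the 5 rose and 0 fell after scaling to the spike-in (quasi-likelihood test of edgeR, with p adjusted after Benjamini and Hochberg over 8309 C. elegans genes and a threshold of 0.05). Over all genes tested, 16.4% rose and 2.47% fell. Among the 491 genes with a mean count of at least that of elo-1, 38.1% rose. elo-3 had fewer counts and is not among these 491 genes, while the other tested members are. With so few members, 2 calls do not stand apart from that share, so the count says nothing particular to the family. This fit had no block for the replicate number. With that block 3 of the 5 rose, elo-1 being added, as did 21.0% of all genes. After scaling to the remainder of the C. elegans transcriptome instead, 0 of the 5 were called by edgeR, where 11.8% of all genes rose and 6.84% fell. In that comparison 1 member had an unadjusted p under 0.05, and DESeq2 and limma-voom also called 0. Total C. elegans counts per P. pacificus count were close between the strains within each replicate number. They were 5.19, 4.61 and 2.78 in CDK-2gut(-) replicates 1, 2 and 3, and 5.35, 4.51 and 2.78 in control replicates 1, 2 and 3. In such bulk libraries a different number of intestinal cells and a different amount of RNA per cell cannot be told apart.

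The elongase of palmitic acid, elo-2 (WBGene00001240), had 157, 182 and 153 counts per 1000000 C. elegans counts (CPM) in CDK-2gut(-) replicates 1, 2 and 3, and 87.4, 76.3 and 97.8 in control replicates 1, 2 and 3. Every CDK-2gut(-) library lay above every control on this scale. In counts per 1000000 P. pacificus counts (spike-in CPM), scaled by trimmed mean of M-values (TMM) over P. pacificus genes, elo-2 stood at 725, 759 and 555 in CDK-2gut(-) and at 411, 303 and 332 in control, again without overlap. Of the 5 tested members, elo-1, elo-2 and elo-6 were separated in this way on the TMM-scaled spike-in scale (34.3% of all genes tested), and elo-2 and elo-6 on the composition scale (24.1%). Without TMM factors, elo-2 stood at 812, 839 and 424 spike-in CPM in CDK-2gut(-) and at 468, 344 and 271 in control, so that CDK-2gut(-) replicate 3 lay below control replicate 1. On that scale elo-1 and elo-6 overlapped too, with 315 and 589 spike-in CPM in CDK-2gut(-) replicate 3 against 452 and 681 in control replicate 1, and 0 of the 5 tested members were separated. The fitted fold was 1.95, or 0.96 ± 0.21 (SE) in log2, and edgeR gave an adjusted p of 0.0115. That log2 fold exceeded those of 70.6% of all genes tested, and of 72.7% of the 491 genes counted at least as highly as elo-1. Against the remainder of the C. elegans transcriptome it was higher by 0.48 ± 0.20 (SE) in log2, with 0.144 as the edgeR adjusted p, and by 0.16 without control replicate 2.

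elo-6 (WBGene00001244), which acts in the synthesis of branched-chain fatty acids, gave values much like those of elo-2. It had 238, 246 and 212 CPM in CDK-2gut(-) libraries, and 127, 111 and 143 in control libraries, with no overlap between the strains. On the TMM-scaled spike-in scale the libraries stood at 1100.5, 1027 and 769.6 in CDK-2gut(-), and at 598, 443 and 487 in control. The spike-in-scaled fold of elo-6 was 1.90, or 0.92 ± 0.20 in log2 (SE; edgeR adjusted p = 0.0135). It lay above the folds of 69.0% of all genes tested, and of 71.1% of the 491 genes counted at least as highly as elo-1. The composition log2 fold was 0.44 ± 0.19 (SE; edgeR adjusted p = 0.173), and 0.12 with control replicate 2 left out.

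Both calls depended on the scaling of the spike-in in the fit without the replicate number, and on single libraries. With plain P. pacificus totals, where 8.54% of all genes rose, the log2 folds were nearly unchanged at 0.94 for elo-2 and 0.90 for elo-6, but their standard errors were wider, at 0.46 and 0.44, and the edgeR adjusted p-values were 0.232 and 0.239. With plain totals and the replicate number as a block, where 18.9% of all genes rose, the calls of elo-2 and elo-6 held, at log2 folds of 0.91 and 0.87 (edgeR adjusted p = 0.016 and 0.0156). Without CDK-2gut(-) replicate 2, where 706 of 8684 genes rose, the log2 fold was 0.88 for each. The edgeR adjusted p-values were then 0.0781 for elo-2 and 0.0772 for elo-6. Without CDK-2gut(-) replicate 1, where 783 of 8546 genes rose, the log2 fold of elo-6 was 0.82 (edgeR adjusted p = 0.0522). With all libraries kept 1365 of 8309 genes rose, so these losses of calls were not particular to elo-2 and elo-6. Over all 15 alternatives the adjusted p ranged from 0.000324 to 0.232 for elo-2 and from 0.000662 to 0.239 for elo-6. Without replicate number 3 of both strains, both members were called, with log2 folds of 1.06 and 1.04 (edgeR adjusted p = 0.0103 and 0.0102), where 15.8% of all genes rose. In the composition fit without number 3 neither was called, with log2 folds of 0.63 and 0.60 (edgeR adjusted p = 0.0944 and 0.0781).

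elo-1 (WBGene00001239), the elongase of polyunsaturated fatty acids, had 122, 134 and 113 CPM in CDK-2gut(-) libraries, and 84.5, 82.2 and 87.6 in control libraries. The strains did not overlap on this scale, and the control libraries lay close together. Its spike-in-scaled log2 fold was 0.59 ± 0.21 (SE), near the median of 0.55 over all genes tested, and did not pass the threshold (edgeR adjusted p = 0.0858). With the replicate number as a block, where 21.0% of all genes rose, it passed (edgeR adjusted p = 0.0267), as it did with the block and plain totals (0.0437) and without CDK-2gut(-) replicate 3 (0.043), within a range of 0.0267 to 0.615 over its alternatives. Without replicate number 3 of both strains the log2 fold was 0.64 (edgeR adjusted p = 0.051). Against the C. elegans transcriptome the log2 fold was 0.12 ± 0.17 (SE), next to an all-gene median of 0.10.

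elo-5 (WBGene00001243), the other elongase of branched-chain fatty acids, supplied most of the counts of the family. It had 2266, 2322 and 2225 CPM in CDK-2gut(-) libraries, and 1735, 1814 and 3017 in control libraries. The 3 CDK-2gut(-) libraries lay within a narrow range, between control replicates 1 and 2 on the low side and control replicate 3 on the high side. Means were 2271 ± 48.9 in CDK-2gut(-) and 2189 ± 719 in control (SD, n = 3 each). The log2 fold was 0.14 ± 0.17 (SE; edgeR adjusted p = 0.619) on the spike-in scale and -0.38 ± 0.28 (SE; edgeR adjusted p = 0.424) for composition. Of the 491 genes counted at least as highly as elo-1, 34.0% had a lower fold than elo-5 on the spike-in scale and 33.0% for composition. Without control replicate 3 the composition log2 fold was -0.017 and the spike-in-scaled one 0.30, neither past the threshold (edgeR adjusted p = 0.952 and 0.299). Without replicate number 3 of both strains they were -0.041 and 0.40 (edgeR adjusted p = 0.884 and 0.105).

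elo-3 (WBGene00001241) was counted far more sparsely. It had 128, 81 and 86 counts in CDK-2gut(-) libraries, and 62, 39 and 72 counts in control libraries. Divided by library totals the strains overlapped, at 8.06, 6.44 and 7.63 CPM in CDK-2gut(-) and 6.57, 3.66 and 7.17 in control. The spike-in-scaled log2 fold was 0.40 ± 0.39 (SE; edgeR adjusted p = 0.543), and the composition log2 fold was -0.094 ± 0.35 (SE; edgeR adjusted p = 0.903).

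**Figure D1:**
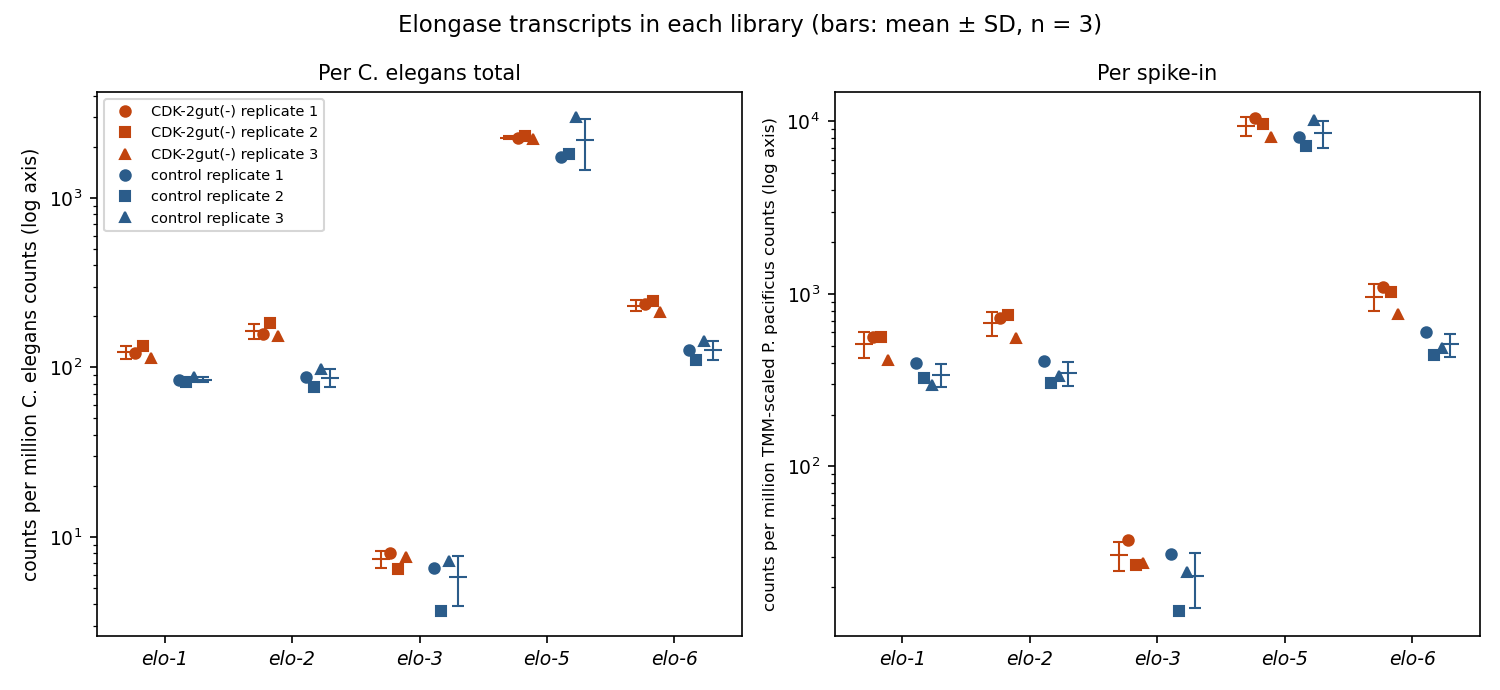
Counts of elo-1, elo-2, elo-3, elo-5 and elo-6 in each library, as CPM (left) and TMM-scaled spike-in CPM (right), on log axes; points are libraries, shaped by replicate number, and bars give the mean ± SD (n = 3 per strain). The CDK-2gut(-) points of elo-2 and elo-6 lie above all control points in both panels, while those of elo-5 overlap with the controls in both.

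The remaining 4 members together had 82 of 186475 family counts, or 0.044%. elo-8 (WBGene00001246) had 0 counts in all 6 libraries, which allows at most 0.189 to 0.266 CPM in CDK-2gut(-) and 0.281 to 0.318 in control, if 3 counts are taken as the limit. elo-4 (WBGene00001242) had 1 count, in CDK-2gut(-) replicate 2. elo-7 (WBGene00001245) had 14, 0 and 1 counts in CDK-2gut(-) libraries and 0, 2 and 0 in control libraries, so that 14 of its 17 counts came from CDK-2gut(-) replicate 1. elo-9 (WBGene00001247) had 22, 26 and 5 counts in CDK-2gut(-) libraries and 0, 4 and 7 in control libraries, which overlap. Tested with no filter on low counts, elo-9 had a spike-in-scaled log2 fold of 2.01 ± 1.03 (SE), a value that depends on the prior count, and an edgeR adjusted p of 0.253. These limits cover counting error only. The 5 tested members had at least 39 counts in every library and did not pass the filter through CDK-2gut(-) alone.

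Shares of the members within the family were compared inside each library, which needs no scaling. elo-5 made up 81.1%, 80.3% and 82.1% of the summed family counts in CDK-2gut(-) replicates 1, 2 and 3, and 85.0%, 86.9% and 90.0% in control replicates 1, 2 and 3. elo-6 made up 8.28% ± 0.398 in CDK-2gut(-) and 5.28% ± 0.98 in control, elo-2 5.84% ± 0.385 and 3.62% ± 0.683, and elo-1 4.40% ± 0.232 and 3.56% ± 0.83 (SD, n = 3 each). The strains did not overlap for any of these 4 shares, which add up to nearly all of the family and so are not independent of each other. For elo-1 the gap was narrow, with 4.18% in CDK-2gut(-) replicate 3 against 4.14% in control replicate 1. How often shares of other genes separate in this way was not computed. Counts were not divided by transcript length, so a share of counts does not rank the members by number of transcripts.

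**Figure D2:**
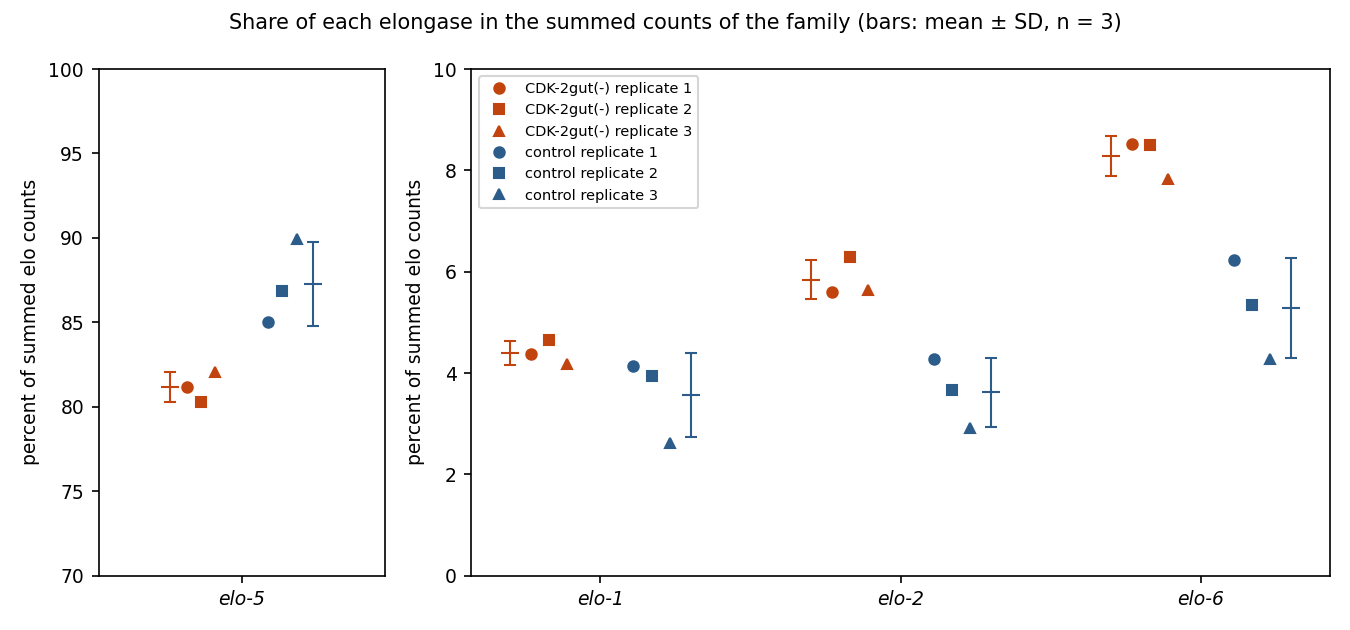
Percent of the summed elo-1 to elo-9 counts taken by elo-5 (left, axis from 70 to 100) and by elo-1, elo-2 and elo-6 (right, axis from 0 to 10) in each library; points are libraries, shaped by replicate number, and bars give the mean ± SD (n = 3 per strain). The share of elo-5 is lower in all 3 CDK-2gut(-) libraries than in any control, and the shares of elo-2 and elo-6 are higher.

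The ratio between both branched-chain elongases was lower in every CDK-2gut(-) library than in any control. There were 9.53, 9.44 and 10.5 elo-5 counts per elo-6 count in CDK-2gut(-) libraries, and 13.6, 16.3 and 21.0 in control libraries. The log2 ratio averaged 3.29 ± 0.085 in CDK-2gut(-) and 4.06 ± 0.31 in control (SD, n = 3 each), a difference of -0.77 (exact permutation test, two-sided, p = 0.1, which is as low as 3 libraries against 3 can go). Control replicate 3, the library with the highest elo-5 CPM, had the highest ratio, and without it the difference was -0.60 with the strains still apart. elo-2 and elo-1 were counted about equally in control. There were 1.28, 1.35 and 1.35 elo-2 counts per elo-1 count in CDK-2gut(-) libraries and 1.03, 0.928 and 1.12 in control libraries, a log2 difference of 0.38 (exact permutation test, two-sided, p = 0.1). Without replicate number 3 of both strains the differences in log2 ratio were -0.65 and 0.43. Neither ratio can pass a threshold of 0.05 in this design.

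The summed counts of the family, most of them from elo-5, overlapped between the strains. The 9 members together held 2792, 2893 and 2711 CPM in CDK-2gut(-) libraries, and 2041, 2088 and 3354 in control libraries, which lie on both sides of the CDK-2gut(-) range. With elo-5 left out, the sum of elo-1, elo-2, elo-3 and elo-6 was 526 ± 41.5 CPM in CDK-2gut(-) and 305 ± 31.2 in control (SD, n = 3 each). That is a ratio of 1.73 between the means. For all members but elo-5 the log2 difference was 0.79, where the median of all genes tested was 0.51 with plain C. elegans totals.

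The calls depended on the scale, while the members departed from the median gene by similar amounts on both. Both fits use the same counts and differ in library sizes, which shift all genes nearly alike. This likeness therefore follows largely by construction. On the log2 scale elo-2 lay 0.41 and elo-6 0.37 above the all-gene median with the spike-in, and 0.38 and 0.33 above it for composition. elo-5 lay below it, at -0.41 and -0.49. The median log2 fold of the 5 tested members was 0.59 on the spike-in scale and 0.12 for composition, next to 0.55 and 0.10 over all 8309 genes. Of the 5, elo-1, elo-2 and elo-6 lay above the all-gene median in both fits, and elo-3 and elo-5 below it. Divided by plain C. elegans totals, 3 of 5 members had CDK-2gut(-) libraries above all controls (39.0% of all genes tested) and the same 3, elo-1, elo-2 and elo-6, were called higher by edgeR (22.0% of all genes), with log2 folds of 0.54, 0.91 and 0.87 and adjusted p-values of 0.0143, 0.003 and 0.00314. The TMM factors over C. elegans genes were 1.05 to 1.26 in CDK-2gut(-) libraries and 0.792 to 0.973 in control libraries, and applying them turned these 3 calls into 0. With plain totals the median gene stood 0.51 higher on the log2 scale.

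**Figure D3:**
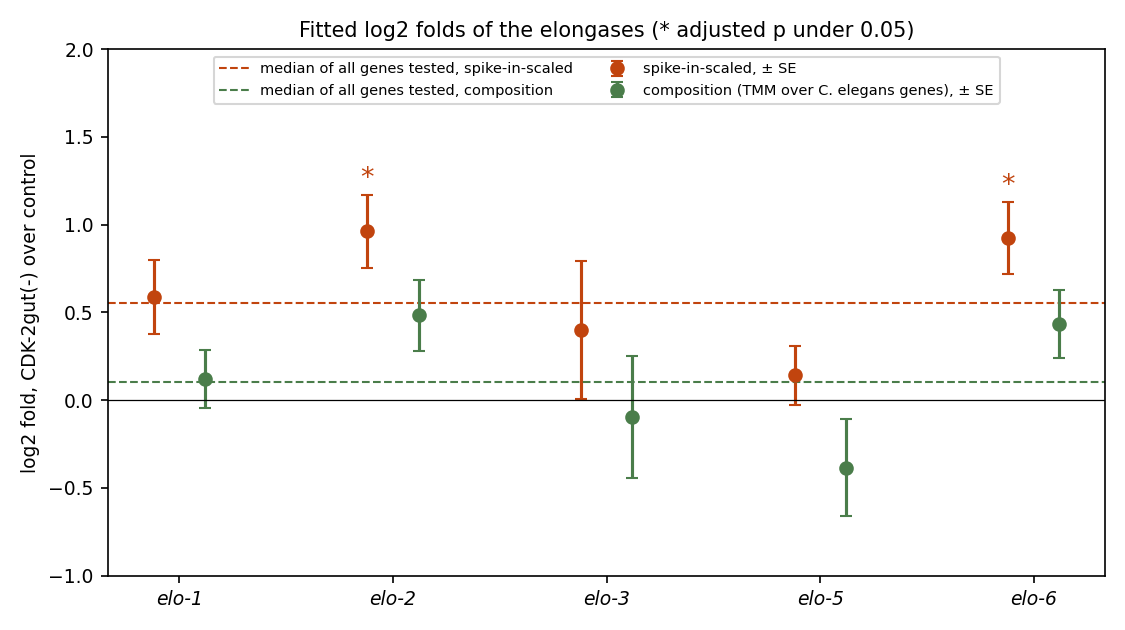
Fitted log2 folds (CDK-2gut(-) over control, ± SE from edgeR) of the 5 tested members, scaled to the spike-in and to the C. elegans transcriptome; dashed lines mark the median of all genes tested in each fit, 0.55 and 0.10. elo-2 and elo-6 lie above the line of either fit and are marked as called with the spike-in only, and elo-5 lies below both lines.

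Per P. pacificus count, elo-1, elo-2, elo-3 and elo-6 stood higher in CDK-2gut(-) within each replicate number, as did 50.3% of all genes tested. For elo-2 the log2 difference between CDK-2gut(-) and control was 0.80, 1.28 and 0.64 in numbers 1, 2 and 3. For elo-6 it was 0.86, 1.17 and 0.56, and for elo-1 0.48, 0.74 and 0.37. Number 2 had the highest and number 3 the lowest difference for each of these genes. elo-5 differed by 0.34, 0.39 and -0.44, with number 3 in the opposite direction to the other numbers. Without TMM factors, elo-5 stood at 11755, 10712 and 6177 spike-in CPM in CDK-2gut(-) and at 9289, 8186 and 8374 in control. CDK-2gut(-) replicate 3 was lowest there, but both libraries of number 3 held few C. elegans counts per P. pacificus count. With TMM factors elo-5 stood at 10489, 9695 and 8077 in CDK-2gut(-) and at 8157, 7209 and 10255 in control. In CPM, control replicate 3 was the highest library. Which library of number 3 sets the opposite direction was not tested.

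**Figure D4:**
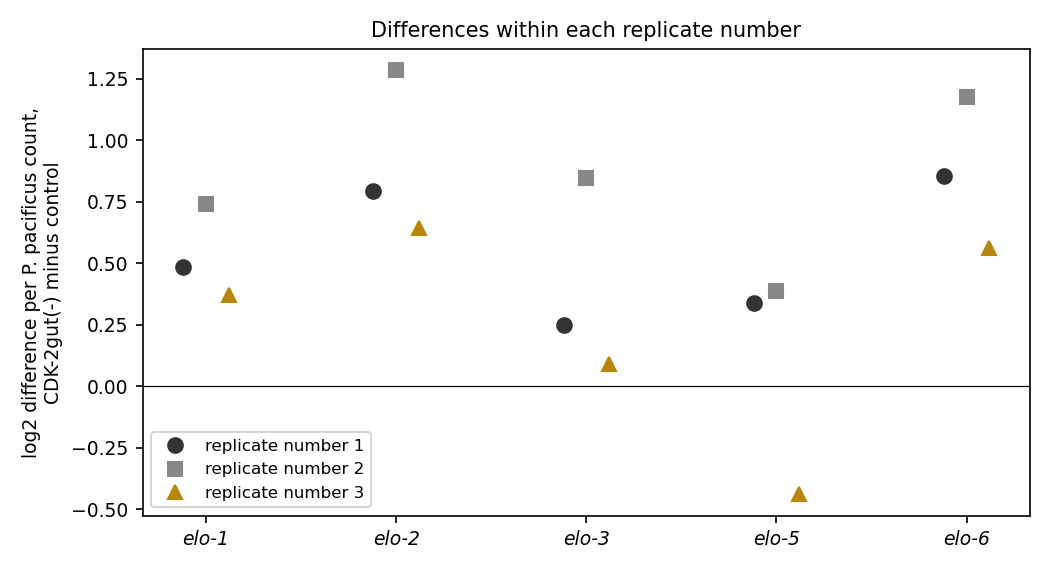
Log2 differences between CDK-2gut(-) and control libraries of the same replicate number, per P. pacificus count, for the 5 tested members; each point is a pair of libraries. All 3 points of elo-1, elo-2, elo-3 and elo-6 lie above 0, and elo-5 has points of 0.34 and 0.39 and a point of -0.44.

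Some members sit close to other genes in the reference annotation, which matters because it is not stated whether counting used strand. elo-1 and elo-7 are neighbours with 1 pseudogene between them, and elo-5 and elo-6 are separated by 3 protein-coding genes. The annotated span of elo-5 overlaps that of F41H10.3, elo-3 overlaps gstk-2, elo-4 overlaps ufc-1 and elo-7 overlaps F56H11.2, so counts of these members are less certain than those of elo-1, elo-2 and elo-6, for which no overlap with a protein-coding gene or pseudogene was found.

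By Pearson's r of log2 composition-scaled counts over the 6 libraries, among 3553 genes with a mean of at least 100 counts, the genes most like elo-5 were WBGene00008229 (r = 0.996) and WBGene00004037 (r = 0.992). Of the 3553 genes, 4.08% had an r above 0.9. On this scale elo-5 stood at 3811 in control replicate 3 and at 1792 to 2117 in the other libraries. These values of r therefore rest largely on that library. The composition log2 folds of both genes were -0.32 and -0.28 (edgeR adjusted p = 0.455 and 0.422).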

How the data were processed

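The deposited file is a single table of raw counts for both species, not normalized by the authors. Per the submitters' processing notes, STAR and featureCounts were used. For neither tool is a version given in the sources used here, and the same holds for builds, annotation and strand setting. By the table's name, reads that map to several places are not in it. Rows up to 46958 were taken as C. elegans and later rows as P. pacificus. This boundary was a setting given beforehand, so the species of each row is inferred. The last member, elo-9, lies 112 rows before this boundary. Gene neighbours came from the RefSeq table of assembly WBcel235.

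Robust quasi-likelihood fits were run in edgeR 4.0.16 under R 4.3.3 over the 8309 C. elegans genes that filterByExpr kept, and p-values were adjusted after Benjamini and Hochberg with a threshold of 0.05. For the spike-in scale, library sizes were totals of P. pacificus counts multiplied by TMM factors of that species. For composition, the same was done with C. elegans counts. Any error of the spike-in moves all genes together. Standard errors were taken as log2 fold over the root of the F statistic. The edgeR fits were tested on simulated counts with known folds. Library sizes were given to those fits, so the scaling and any pairing were not tested. Alternatives used DESeq2 (1.42.0) and limma-voom (3.58.1), other scalings and filters, and each library left out. Deviations from the group means of same-numbered libraries correlated at 0.57, 0.58 and 0.85 over P. pacificus genes, so the numbers pair the spike-in. Over C. elegans genes they correlated at 0.12, -0.048 and 0.20, and were not taken as pairs. The threshold set for pairing was 0.1, which numbers 1 and 3 exceeded and number 2 did not. Libraries of different numbers were not correlated for comparison. The main spike-in fit had no block, although its library sizes rest on the paired spike-in, so fits with the block are given beside it. All 9 members are named, and the members and lists were chosen with earlier results of these data known.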

Additional observations from a re-analysis of the deposited data

How the results depend on the processing

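On the spike-in scale elo-2 and elo-6 kept their direction in all 15 alternatives run for each. The number of members higher on the spike-in scale (2) was 0 with plain P. pacificus totals and 0 at an adjusted p under 0.01, and 0 to 3 with single libraries left out. With the replicate number as a block it was 3, elo-1 being added, and also 3 with the block and plain totals. Over all genes the number higher went from 1365 to 710 with plain totals and to 685 at the stricter threshold. With single libraries left out it was 706 to 1317, with the block 1744, and with the block and plain totals 1570. For composition the number of members (0) was 3 with plain C. elegans totals and 0 to 1 with single libraries left out. It was 0 with the block, but 3 with the block and plain totals. Over all genes the composition number higher went from 980 to 1830 with plain totals, and to 507 to 1105 with single libraries left out. With the block it was 845, and with the block and plain totals 1548. The call gained without control replicate 3 was elo-6 (edgeR adjusted p = 0.0494, over a range of 0.00314 to 0.728). The block with TMM factors changed no other call. The log2 difference of the summed family was 0.20 per P. pacificus count and 0.21 per C. elegans count. With single libraries left out it ranged from 0.024 (CDK-2gut(-) replicate 1) to 0.50 (CDK-2gut(-) replicate 3) per P. pacificus count, and from 0.080 (control replicate 1) to 0.44 (control replicate 3) per C. elegans count. It became 0.79 on either scale without elo-5 and -0.21 per C. elegans count with TMM factors. For these shifts the cause was not tested, although a stricter threshold calls fewer genes by construction and elo-5 takes most of the sum. The uncalled composition log2 folds changed sign under 3 alternatives for elo-1, 6 for elo-3 and 2 for elo-5. Leaving out replicate number 3 of both strains, plain totals with the block and another boundary between the species were added once the data had been seen, and the boundary left both numbers as they were.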
